A study of Mus musculus with 39 samples.

Results

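The genes followed here are 8 histone lysine demethylases of the Kdm4, Kdm5 and Kdm6 families, Kdm4a, Kdm4b, Kdm4c, Kdm4d, Kdm5a, Kdm5b, Kdm6a and Kdm6b, out of 34797 gene names on a mouse microarray. Their probes were found by the gene name printed in the array files, which gave 12 of 55681 probes. Kdm5b had 4 probes, Kdm4a had 2 and each of the other genes had 1. No expression value entered this choice, although the genes were picked with earlier results of these data known. Where a gene had several probes, the probe with the highest mean over all arrays stood for the gene, and the other probes are described beside it.

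Histone lysine demethylases of this kind are iron- and 2-oxoglutarate-dependent enzymes that remove methyl groups from histone H3. Each lysine of the histone has its own mark, named H3K with its position. Kdm4 enzymes act on methylated H3K9 and, for Kdm4a to Kdm4c, on H3K36. Kdm5 enzymes act on H3K4 and Kdm6 enzymes on H3K27. In the mouse preimplantation embryo these marks are rewritten while maternal transcripts are cleared and the embryonic genome becomes active, an event that reaches its major phase at the 2-cell stage.

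The samples were oocytes and embryos that the labels give as B6D2F1 x ICR. Oocytes came from superovulated B6D2F1 females, 8 to 9 weeks old, and were fertilized in vitro with sperm of ICR males, 15 to 20 weeks old. Treated zygotes were exposed to 10 µM T247, an inhibitor of HDAC3, or to 10 µM MGCD0103, an inhibitor of class I histone deacetylases, for 6 h from 4 h post-insemination (hpi), and were then returned to the medium of the control embryos. The 13 conditions were untreated GV oocytes, MII oocytes, 1-cell, 2-cell, 4-cell and 8-cell embryos, morulae and blastocysts, 1-cell, 2-cell and 4-cell embryos after T247, and 1-cell and 2-cell embryos after MGCD0103. Collection was at 12 hpi for 1-cell embryos, at 24 hpi for 2-cell embryos and at 48 hpi for 4-cell embryos. Each condition had 3 arrays, and each array held RNA pooled from 100 oocytes or embryos. The labels do not say whether the 3 pools of a condition came from separate animals or fertilizations, so the p-values measure the spread between these pools.

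The 39 arrays had 43.7 to 57.4% of probes well above background and 0 saturated spots. In 1-cell embryos this share was 46.0 to 49.8% in controls, 51.6 to 53.3% with T247 and 51.6 to 52.8% with MGCD0103. In 4-cell embryos it was 44.2 to 46.3% in controls and 49.8 to 52.1% with T247, whereas treated and control 2-cell arrays overlapped. Control arrays lay on slides 1 to 3, T247 arrays on slides 4 and 5 and MGCD0103 arrays on slide 6, so slide and treatment cannot be told apart. Array 1 of the 2-cell controls stood apart from the other 2, with a correlation as low as 0.939 where no other condition fell below 0.981, and results at the 2-cell stage are given with and without it. The stage labels were checked on marker genes. All 9 oocyte markers tested were well above background on every array from the GV to the 2-cell stage, with a summed log2 level of 20.5 in GV oocytes and at most 9.64 in blastocysts. All 10 blastocyst markers were well above background in morulae and blastocysts, with a median level of 12.7 in blastocysts. All 10 were also well above background in 2-cell embryos after T247 and after MGCD0103, at median levels of 7.17 and 7.05. In 2-cell and in 4-cell controls 8 were, so detection alone did not mark the late stages. The median level of the 2-cell markers was highest in the 2-cell controls, at 14.4. Of 8 markers of cumulus and granulosa cells, 8 were well above background in GV oocytes and 1 in 4-cell controls. Of 6 sperm markers tested, Prm2 was well above background on every array of all conditions. In GV oocytes 4 of the 6 were well above background on all arrays. Tnp2 was not well above background on any array other than those of blastocysts.

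Promoter sequences are shown for 3 members with different courses between the 1-cell and 2-cell stages, Kdm4c and Kdm5b, which rose, and Kdm6a, which fell. They are the 250 bases before the transcription start in RefSeq's annotation of mouse build GRCm38.p6, which held 5 of the 8 members in 6 windows. Kdm4b, Kdm5a and Kdm6b had no entry, and Kdm4c had a second window, upstream of the one shown, with 0 CG pairs. Capitals mark matches on either strand to the GC box, searched as GGGCGG. The CCAAT box was searched by the letters of its name, and the TATA box as TATAAA. Of 32851 promoters of the same length, 32.7% held the GC box letters, 33.8% the CCAAT box letters and 12.4% the TATA box letters.
Kdm4c, chr4:74251629-74251878, plus strand: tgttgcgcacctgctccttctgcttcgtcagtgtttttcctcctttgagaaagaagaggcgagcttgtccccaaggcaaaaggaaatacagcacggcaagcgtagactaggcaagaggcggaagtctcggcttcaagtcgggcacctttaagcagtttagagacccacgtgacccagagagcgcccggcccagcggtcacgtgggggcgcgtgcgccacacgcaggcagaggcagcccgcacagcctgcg
Kdm5b, chr1:134559928-134560177, plus strand: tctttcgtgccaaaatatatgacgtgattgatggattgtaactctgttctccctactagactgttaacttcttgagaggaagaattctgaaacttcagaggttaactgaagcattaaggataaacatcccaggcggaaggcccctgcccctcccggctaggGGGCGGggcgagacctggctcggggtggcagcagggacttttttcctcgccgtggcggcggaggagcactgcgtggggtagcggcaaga
Kdm6a, chrX:18162325-18162574, plus strand: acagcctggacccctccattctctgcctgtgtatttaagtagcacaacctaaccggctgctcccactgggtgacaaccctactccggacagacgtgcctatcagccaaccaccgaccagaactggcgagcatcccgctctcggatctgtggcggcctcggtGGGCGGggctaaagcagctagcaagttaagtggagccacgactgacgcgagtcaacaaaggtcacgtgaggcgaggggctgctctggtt
The Kdm5b and Kdm6a windows each held 1 GC box match, ending 83 bases before the start in both, and the Kdm4c window held none of the 3 motifs. A match or its absence describes these letters only. The 3 windows held 19, 13 and 15 CG pairs in the order shown, against a median of 6 over all promoters. The motif content of the windows did not divide the 2 genes that rose from the gene that fell.

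The level of each member is its log2 intensity after smooth quantile normalization of all arrays together, and a level of 1 probe is not set against that of another probe. In pooled RNA, fewer cells with a transcript and less transcript per cell cannot be told apart. A gene was called differentially expressed when its log2 fold change (LFC) was at least 1 in size and its adjusted p from limma, with Benjamini-Hochberg adjustment over the 38252 probes tested, was below 0.05. Values after ± are SD for levels and SE for LFCs, with n = 3 arrays per condition.

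**Figure D1:**
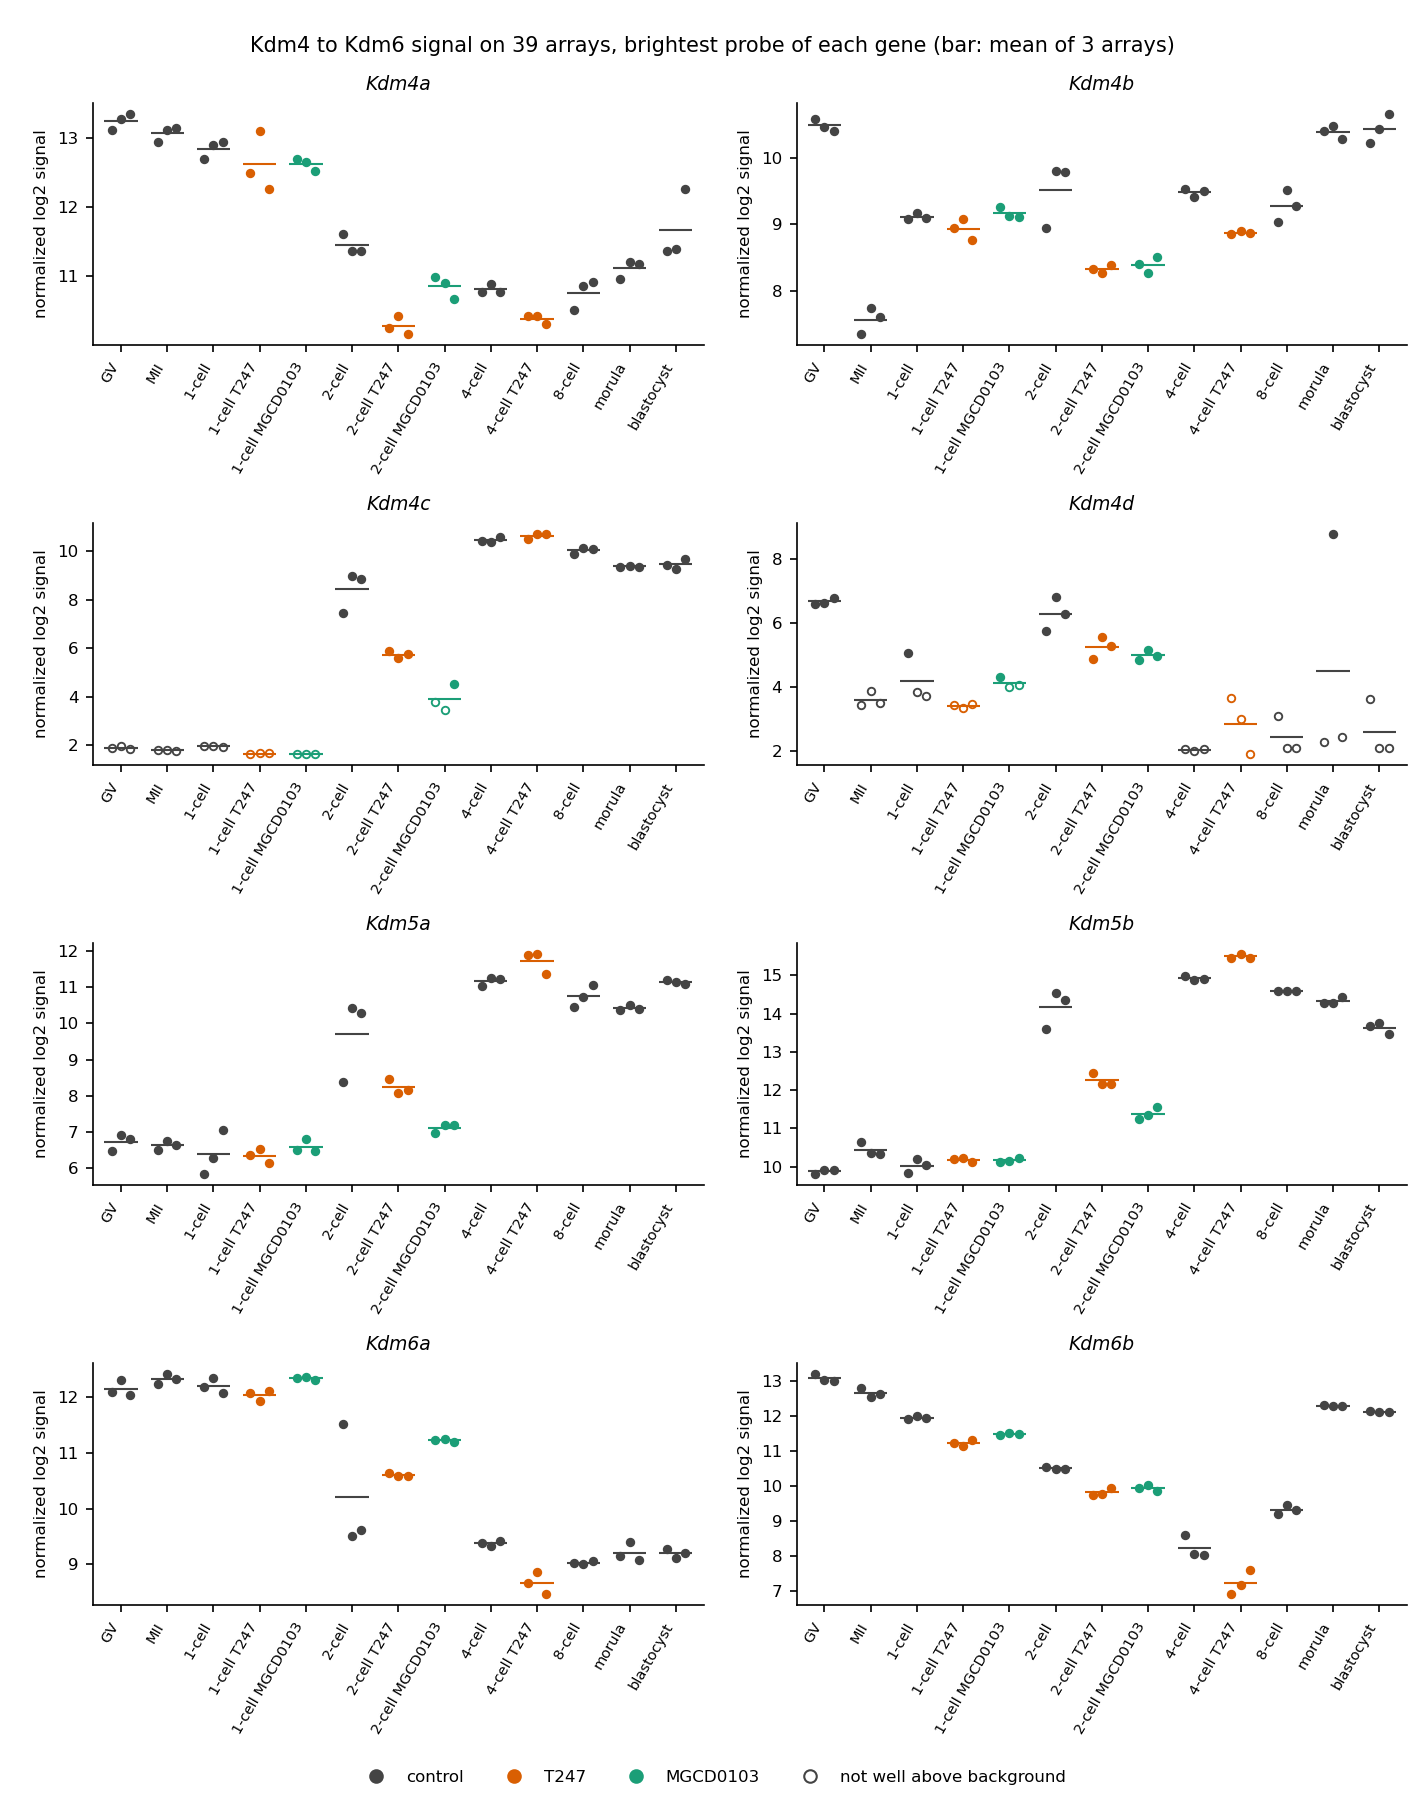
Log2 level of the brightest probe of each member on every array (y axis) in the 13 conditions (x axis, in stage order), with open points for arrays on which the probe was not well above background and bars for the mean. Kdm4c, Kdm5a and Kdm5b are low up to the 1-cell stage and high from the 4-cell stage on, whereas Kdm4a and Kdm6a are high in oocytes and 1-cell embryos and lower afterwards, and Kdm6b dips at the 4-cell stage.

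The members fell into different courses over untreated development. Kdm4c, Kdm5a and Kdm5b were low in oocytes and 1-cell embryos and rose at the 2-cell stage. Kdm4a, by its brighter probe, and Kdm6a were high up to the 1-cell stage and fell at the 2-cell stage. The dimmer Kdm4a probe rose at that stage. Kdm6b fell at the 2-cell and 4-cell stages and rose again by the morula. Kdm4b had its lowest level in MII oocytes, and Kdm4d was seen well above background mainly in GV oocytes and 2-cell embryos. Between 1-cell and 2-cell controls 7 of 8 members were called, 4 higher and 3 lower, where 48.5% of all probes tested were called.

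Kdm5b is a demethylase of H3K4. Its brightest probe measured 9.83, 10.19 and 10.03 in the 1-cell controls and 13.60, 14.55 and 14.36 in the 2-cell controls. All 2-cell arrays lay above all 1-cell arrays, and the LFC was 4.15 ± 0.15 (limma adjusted p = 1.06e-19). It held a level of 14.92 ± 0.06 at the 4-cell stage and 13.63 ± 0.15 in blastocysts. Kdm4c, a demethylase of H3K9 and H3K36, was not well above background on any array of GV oocytes, MII oocytes or 1-cell embryos, treated or not. It measured 7.45, 8.99 and 8.86 in the 2-cell controls and 10.41, 10.39 and 10.59 in the 4-cell controls. The rise from the 1-cell to the 2-cell stage was at least 17.2-fold (limma adjusted p = 8.72e-20), a lower bound set by the dimmest signals counted as above background. The further rise to the 4-cell stage had an LFC of 2.03 ± 0.24 (limma adjusted p = 9.96e-09).

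Kdm5a, the other H3K4 demethylase measured, followed the same course with more spread between arrays. It measured 5.83, 6.28 and 7.05 in the 1-cell controls and 8.39, 10.42 and 10.29 in the 2-cell controls, with no overlap. The LFC was 3.31 ± 0.32 (limma adjusted p = 2.23e-10). The rise from the 2-cell to the 4-cell stage was 1.47 ± 0.32 with all arrays and 0.82, below the threshold, without array 1 of the 2-cell controls. Kdm4d, a relative of Kdm4a to Kdm4c with a smaller protein, measured 5.06, 3.83 and 3.72 in the 1-cell controls, of which only array 1 was well above background, and 5.76, 6.83 and 6.28 in the 2-cell controls. Its LFC of 2.08 ± 0.89 (limma adjusted p = 0.0414) was not called after quantile normalization (1.92) or with normexp background correction (0.71). It was also not called with the slide as a block, with dim probes kept in the test or with only the 24 control arrays in the fit. The call was lost too when array 2 or array 3 of either group was left out (1.81 to 2.51 without any 1 array).

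Kdm6a, a demethylase of H3K27 encoded on the X chromosome, and Kdm4a went the other way. Kdm6a measured 12.19, 12.34 and 12.08 in the 1-cell controls and 11.51, 9.51 and 9.61 in the 2-cell controls. Array 1 of the 2-cell controls lay nearest to the 1-cell level, though still below it. The LFC was -1.99 ± 0.27 (limma adjusted p = 1.32e-07) with this array and -2.64 without it. Within the 3 slides, which each held 1 array of both stages, the difference ran from -2.83 to -0.68. Kdm4a, a demethylase of H3K9 and H3K36, measured 12.71, 12.90 and 12.95 at the 1-cell stage and 11.62, 11.37 and 11.36 at the 2-cell stage. Its LFC was -1.40 ± 0.19 (limma adjusted p = 1.2e-07) by the brighter probe, whereas the dimmer probe rose at this step.

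Kdm6b, the other H3K27 demethylase, fell to the 4-cell stage and came back. Its mean level was 13.10 in GV oocytes, 12.66 in MII oocytes, 11.96 in 1-cell and 10.51 in 2-cell controls. The 4-cell arrays measured 8.60, 8.06 and 8.01, the lowest of the untreated stages. The 8-cell arrays measured 9.19, 9.47 and 9.31, and the morula arrays 12.33, 12.29 and 12.30. None of these groups overlapped. The LFC was -1.45 ± 0.14 from the 1-cell to the 2-cell stage (limma adjusted p = 1.78e-10), -2.28 ± 0.14 from the 2-cell to the 4-cell stage (limma adjusted p = 3.71e-15) and 2.98 ± 0.14 from the 8-cell stage to the morula (limma adjusted p = 5.12e-17). The rise from the 4-cell to the 8-cell stage was 1.10 ± 0.14 (limma adjusted p = 4.75e-07), and was 0.94 after quantile normalization, 0.96 with normexp and 0.996 without array 3 of the 4-cell controls, each just below the threshold.

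Kdm4b, another enzyme for H3K9 and H3K36, had its lowest level at the end of oocyte maturation. It measured 10.59, 10.46 and 10.40 in GV oocytes, 7.34, 7.73 and 7.60 in MII oocytes and 9.08, 9.16 and 9.09 in 1-cell controls. The groups did not overlap, and the LFC was -2.93 ± 0.16 from GV to MII (limma adjusted p = 4.4e-16) and 1.55 ± 0.16 from MII to the 1-cell stage (limma adjusted p = 4.14e-09). Kdm4d measured 6.62, 6.64 and 6.80 in GV oocytes and was not well above background on any MII array, a fall of at least 5.70-fold (limma adjusted p = 0.004). It was also at least 4.03-fold lower in 4-cell than in 2-cell controls (limma adjusted p = 1.03e-04).

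Outside the 1-cell to 2-cell transition, fewer members were called. From GV to MII oocytes 2 of 8 were called, Kdm4b and Kdm4d, both lower, where 39.9% of probes were called. From MII oocytes to the 1-cell stage 1 was called, Kdm4b, where 18.7% of probes were called. From the 2-cell to the 4-cell stage 4 were called, Kdm4c and Kdm5a higher and Kdm4d and Kdm6b lower, where 55.8% were called. From the 4-cell to the 8-cell stage 1 was called, Kdm6b, where 12.9% were called. From the 8-cell stage to the morula 2 were called, Kdm4b at 1.12 ± 0.16 and Kdm6b, where 31.0% were called. From the morula to the blastocyst 0 members were called by limma, where 24.0% of probes were called. At an unadjusted p below 0.05 in limma there were 4, a looser limit for which the share of all probes is not given. Kdm5b was at -0.70 ± 0.15 in this step (limma adjusted p = 4.79e-04), and at -1.14 and called after 75th percentile scaling.

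Some of these steps depended on how the arrays were scaled to each other, and the median over all probes moved with the scaling too. From GV to MII oocytes the median LFC of all probes was -0.68 after smooth quantile normalization, 0.60 after scaling to the 75th percentile and 0.25 after quantile normalization, and the share of called probes that rose was 1.69, 65.6 and 53.5%. Kdm4b fell under all 3, by -2.93, -1.63 and -1.46. Kdm4d fell by -3.08, -1.87 and -1.87, but its adjusted p was 0.067 and 0.068 under the last 2. Kdm4a, Kdm5b and Kdm6a were not called after smooth quantile normalization, with LFCs of -0.18, 0.57 and 0.18, and were called higher under both alternatives, at 1.15 and 1.31 for Kdm4a, 1.87 and 1.86 for Kdm5b and 1.51 and 1.69 for Kdm6a. Kdm6b was at -0.43, 0.91 and 1.07 and called only under the last, and Kdm4c and Kdm5a were called only after 75th percentile scaling, at 1.29 and 1.15, of which Kdm4c was not well above background in either oocyte. From the 8-cell stage to the morula the median LFC of all probes was 0.39, -0.25 and -0.05, and Kdm6b rose under all 3, by 2.98, 2.35 and 2.01, whereas Kdm4b was at 1.12, 0.48 and 0.34 and called only under the first, and Kdm4c was at -0.67, -1.32 and -1.24 and called lower under the last 2.

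**Figure D2:**
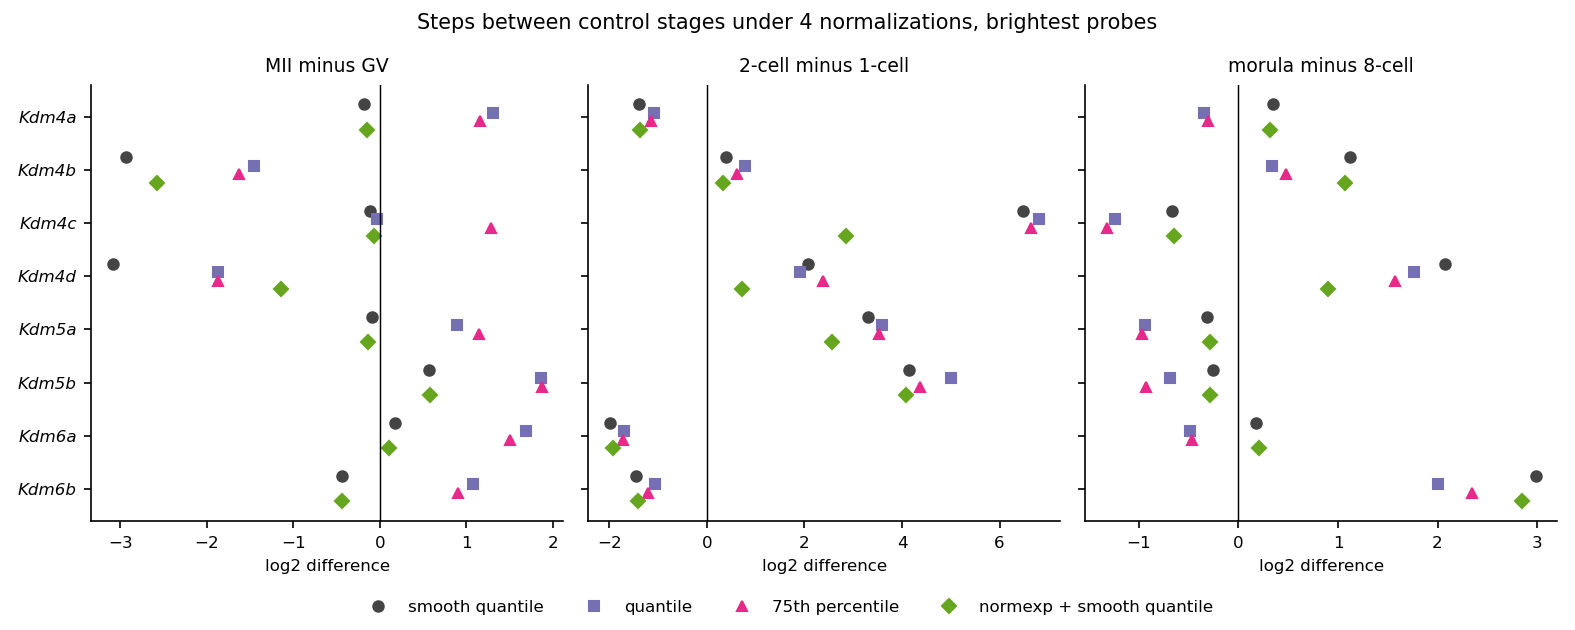
LFC of the brightest probe of each member (x axis, log2) from GV to MII oocytes, from 1-cell to 2-cell controls and from 8-cell embryos to morulae, each point 1 normalization: smooth quantile, quantile, 75th percentile, or normexp background correction before smooth quantile. From GV to MII oocytes Kdm4a sits at -0.18, 1.31 and 1.15 under the first 3, whereas from the 1-cell to the 2-cell stage all points of a member share a direction.

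The order of the 13 conditions within each gene showed which neighbours could be told apart. For Kdm5b the order ran from T247-treated 4-cell embryos, above 4-cell controls (limma adjusted p = 0.0042), through 8-cell, morula and 2-cell controls, which were not told apart from each other in neighbouring pairs, to blastocysts, T247-treated and then MGCD0103-treated 2-cell embryos, each told apart from the condition above it, with the oocytes and all 1-cell groups last and not told apart from each other in neighbouring pairs. For Kdm4c and Kdm5a both 4-cell groups and the later stages came first, the 2-cell controls, T247-treated and MGCD0103-treated 2-cell embryos followed in this order with every pair of neighbours among them told apart, and oocytes and 1-cell groups came last. For Kdm6a all oocyte and 1-cell groups came first, then MGCD0103-treated, T247-treated and control 2-cell embryos, not told apart from each other in neighbouring pairs, and then the later stages. The pairs at both ends of these 2-cell groups were told apart (limma adjusted p = 0.00898 and 0.00669). Kdm6b had the most steps that were told apart, from GV oocytes at the top to T247-treated 4-cell embryos at the bottom. For Kdm4d no neighbouring pair was told apart.

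The members were then compared between HDACi-treated and control embryos of the same stage. At the 1-cell stage 0 of 8 members were called by limma with T247, where 8.05% of probes were called, and 0 with MGCD0103, where 4.99% were called. With each inhibitor 1 member, Kdm6b, had an unadjusted p below 0.05. It measured 11.92, 12.00 and 11.95 in the controls, 11.23, 11.16 and 11.33 with T247 and 11.46, 11.51 and 11.49 with MGCD0103, so that both treated groups lay below the controls with no overlap. The LFC was -0.71 ± 0.14 with T247 (limma adjusted p = 3.47e-04) and -0.47 ± 0.14 with MGCD0103 (limma adjusted p = 0.0229), smaller in size than the LFC limit. The 95% intervals of the other 7 members included 0 with both inhibitors.

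At the 2-cell stage Kdm4c, Kdm5a and Kdm5b, which rose at this stage in untreated embryos, were lower in embryos treated with either inhibitor. With T247, 5 of 8 members were called, all lower, where 25.3% of probes were called and the median LFC of all probes was -0.21. With MGCD0103, 4 members were called lower and 1 higher, where 28.1% of probes were called and the median was 0.07. Kdm4b, Kdm4c, Kdm5a and Kdm5b were called lower with both inhibitors, and Kdm6a was called higher with MGCD0103. Kdm4a was called lower with T247 by its brighter probe and with both inhibitors by its dimmer probe. The comparisons of both inhibitors use the same 3 control arrays.

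**Figure D3:**
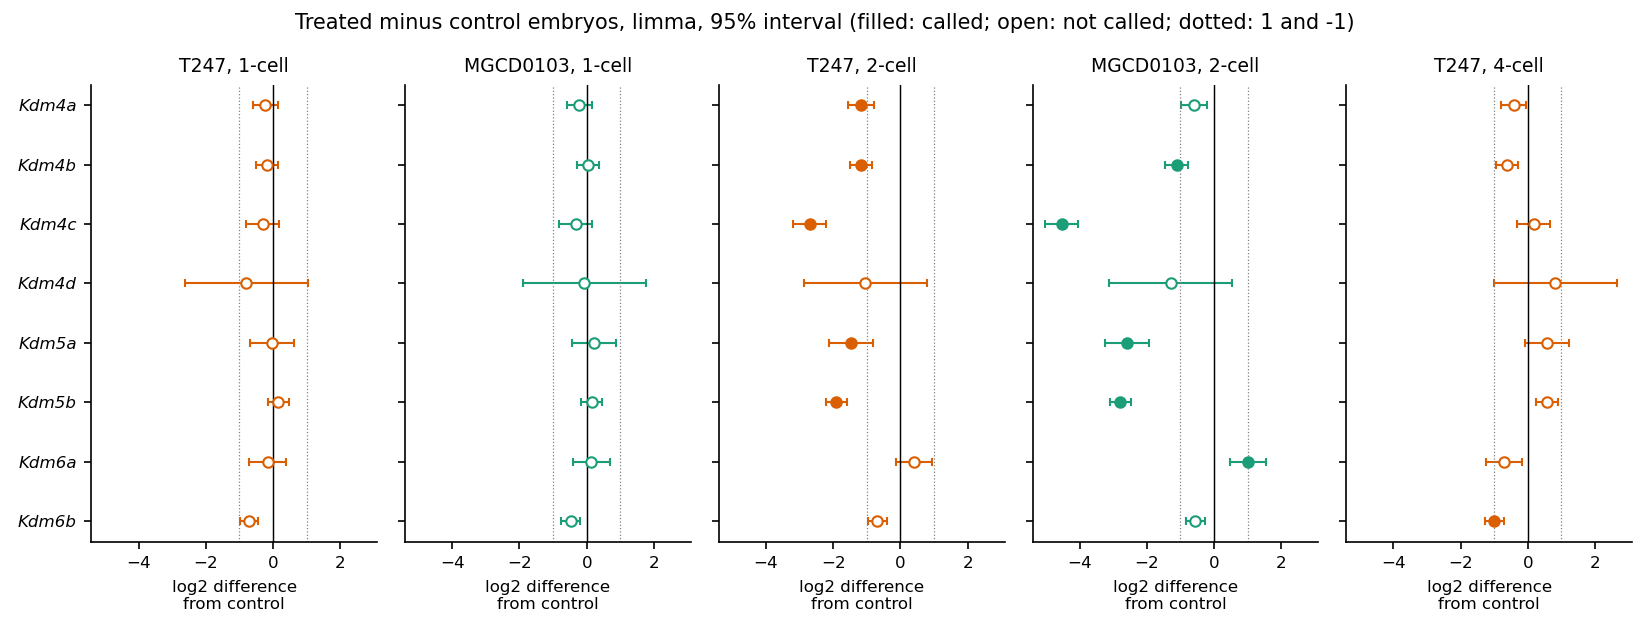
LFC against the control of the same stage for each member (x axis, log2), with 95% intervals, for both inhibitors at the 1-cell and 2-cell stages and for T247 in 4-cell embryos, with filled points for called members and dotted lines at the LFC limit. The intervals of Kdm4b, Kdm4c, Kdm5a and Kdm5b lie below 0 at the 2-cell stage with both inhibitors, down to an LFC of -4.52 for Kdm4c with MGCD0103.

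Against 7.45, 8.99 and 8.86 in the 2-cell controls Kdm4c measured 5.87, 5.58 and 5.75 with T247 and 3.78, 3.45 and 4.50 with MGCD0103. The 3 groups did not overlap, and with MGCD0103 only 1 of 3 arrays was well above background. The LFC was -2.70 ± 0.24 with T247 (limma adjusted p = 2.36e-10) and -4.52 ± 0.24 with MGCD0103 (limma adjusted p = 5.26e-15). With normexp, the MGCD0103 value was -2.44 and still called.

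Kdm5b measured 12.46, 12.16 and 12.15 with T247 and 11.25, 11.34 and 11.56 with MGCD0103, against 13.60, 14.55 and 14.36 in the controls. No groups overlapped, and the treated levels lay between those of 1-cell and 2-cell controls. The LFC was -1.91 ± 0.15 with T247 (limma adjusted p = 4.4e-11) and -2.78 ± 0.15 with MGCD0103 (limma adjusted p = 1.4e-14).

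Kdm5a measured 8.46, 8.08 and 8.17 with T247 and 6.96, 7.18 and 7.20 with MGCD0103, against 8.39, 10.42 and 10.29 in the controls. The first T247 array lay above control array 1, so that T247 and control overlapped, while the MGCD0103 arrays lay below all controls. The LFC was -1.46 ± 0.32 with T247 (limma adjusted p = 3.64e-04) and -2.58 ± 0.32 with MGCD0103 (limma adjusted p = 9.4e-08). When only the 6 arrays of the comparison were fitted, the T247 difference had an adjusted p of 0.10 in limma.

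The H3K9 and H3K36 enzymes Kdm4b and, by its brighter probe, Kdm4a had smaller differences. The dimmer Kdm4a probe, described below, was called lower with both inhibitors and by more. Kdm4b measured 8.94, 9.79 and 9.79 in the controls, 8.32, 8.26 and 8.39 with T247 and 8.40, 8.27 and 8.50 with MGCD0103, with no overlap between treated and control. The LFC was -1.18 ± 0.16 with T247 (limma adjusted p = 5.57e-07) and -1.12 ± 0.16 with MGCD0103 (limma adjusted p = 1.47e-06). Kdm4a measured 11.62, 11.37 and 11.36 in the controls, 10.25, 10.43 and 10.16 with T247 and 10.99, 10.90 and 10.68 with MGCD0103. Both treated groups lay below the controls, with LFCs of -1.17 ± 0.19 (limma adjusted p = 6.24e-06) and -0.59 ± 0.19 (limma adjusted p = 0.00958). With T247 the call was lost after scaling to the 75th percentile, where Kdm4a was at -0.97 and Kdm4b at -0.97, and Kdm4a was at -0.75 after quantile normalization. With MGCD0103 Kdm4b was at -0.96 with normexp and at -0.97 without array 2 or array 3 of the controls, and was not called.

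Kdm6a was the only member with a higher level in treated 2-cell embryos. It measured 10.65, 10.59 and 10.59 with T247 and 11.23, 11.25 and 11.19 with MGCD0103, against 11.51, 9.51 and 9.61 in the controls. The treated arrays lay within a narrow range, and control array 1 lay above all of them while control arrays 2 and 3 lay below, so the groups overlapped. The LFC was 0.40 ± 0.27 with T247 (limma adjusted p = 0.235) and 1.01 ± 0.27 with MGCD0103 (limma adjusted p = 0.00235). The MGCD0103 call was lost without control array 2 (0.66) or 3 (0.71), without MGCD0103 array 2 (0.999), with normexp (0.92) and when only the 6 arrays compared were fitted (limma adjusted p = 0.22). Without control array 1 both inhibitors passed the threshold, at 1.05 ± 0.11 with T247 (limma adjusted p = 4.2e-09) and 1.66 with MGCD0103. Kdm6b was lower by less than the limit, at -0.68 ± 0.14 with T247 (limma adjusted p = 1.48e-04) and -0.56 ± 0.14 with MGCD0103 (limma adjusted p = 0.00123).

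Leaving out control array 1 made most differences at the 2-cell stage larger. With T247 the LFC went to -1.47 for Kdm4b, -3.19 for Kdm4c, -2.12 for Kdm5a and -2.19 for Kdm5b, and with MGCD0103 to -1.40, -5.02, -3.24 and -3.07. The brighter Kdm4a probe went the other way, to -1.08 and -0.51, as did Kdm6b by less, to -0.66 and -0.54. All members called in these 2 comparisons with the full set of arrays were also called without this array.

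**Figure D4:**
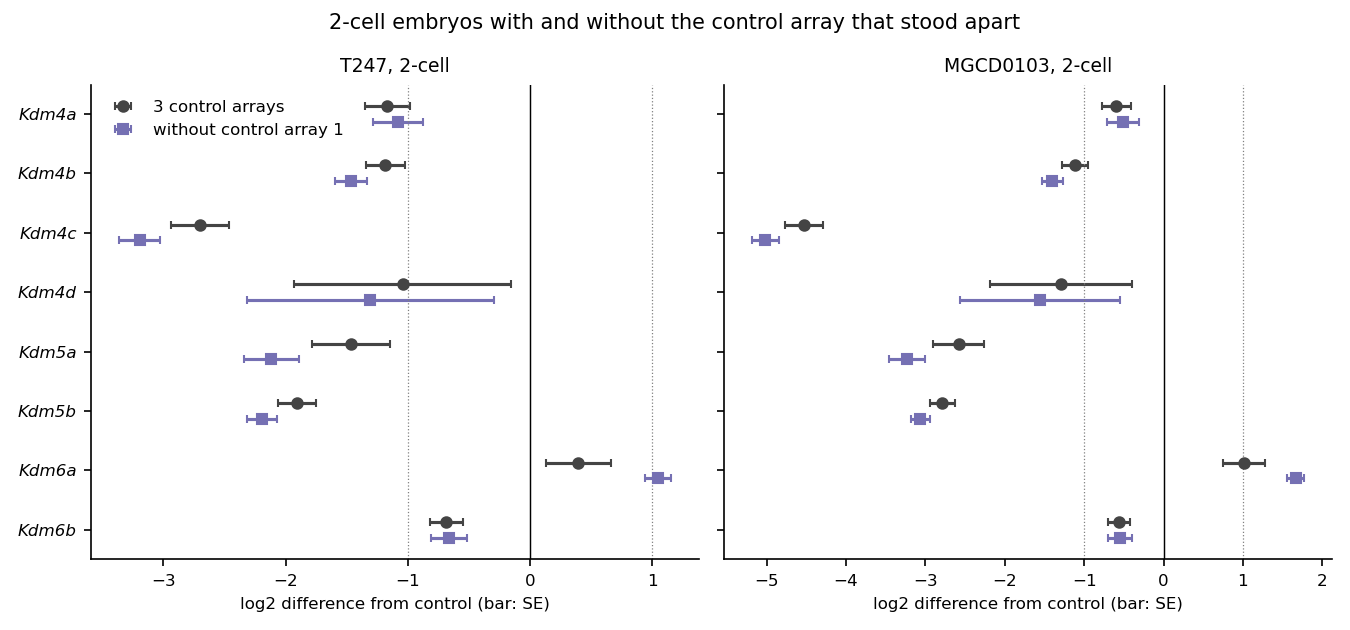
LFC of each member (x axis, log2) with T247 and with MGCD0103 at the 2-cell stage, with all 3 control arrays and without control array 1, with bars for the SE. Kdm6a moves from 0.40 to 1.05 with T247 and from 1.01 to 1.66 with MGCD0103, and Kdm5a from -1.46 to -2.12 and from -2.58 to -3.24.

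Kdm4d was lower in treated 2-cell embryos without passing the test. It measured 5.76, 6.83 and 6.28 in the controls, 4.89, 5.57 and 5.29 with T247 and 4.86, 5.17 and 4.97 with MGCD0103. Treated and control arrays did not overlap. The LFC was -1.04 ± 0.89 with T247 (limma adjusted p = 0.363) and -1.29 ± 0.89 with MGCD0103 (limma adjusted p = 0.244). The SE was set in part by array 2 of the morulae, which measured 8.81 where the other morulae measured 2.29 and 2.43 and were not well above background. With this array left out of the fit, an alternative chosen after seeing the data, the SE was 0.39 and both differences were called, with adjusted p-values of 0.0289 and 0.00715. They were also called with only the 24 arrays of the treated stages in the fit (limma adjusted p = 0.0286 and 0.00817). The MGCD0103 difference was called with only the 6 arrays compared (limma adjusted p = 0.0267) and with array weights (0.0203).

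At the 4-cell stage, 48 hpi, 1 of 8 members was called with T247, where 18.2% of probes were called. Kdm6b, already at its lowest untreated level, measured 8.60, 8.06 and 8.01 in the controls and 6.90, 7.17 and 7.59 with T247. The groups did not overlap, and the LFC was -1.001 ± 0.14 (limma adjusted p = 1.47e-06). This value lies at the LFC limit, and the call was lost without array 1 of the controls or array 1 or array 2 of the T247 embryos, with normexp (-0.81), with the filter and fill-in of the study's methods (-0.998) and in the authors' normalized table (-0.99). Of the 5 members called lower with T247 at the 2-cell stage, 0 were called by limma here. Kdm5b measured 14.99, 14.89 and 14.90 in the controls and 15.45, 15.57 and 15.47 with T247, at an LFC of 0.57 ± 0.15 (limma adjusted p = 0.00425) without overlap, and Kdm5a measured 11.03, 11.24 and 11.23 against 11.89, 11.93 and 11.38, at 0.57 ± 0.32 (limma adjusted p = 0.17). Kdm4c stood at 0.18 ± 0.24. Kdm4b at -0.61 ± 0.16 (limma adjusted p = 0.00338) and Kdm6a at -0.71 ± 0.27 (limma adjusted p = 0.0348) were lower by less than the limit. The summed log2 level of the cumulus and granulosa markers was 8.05 to 8.68 on the T247 arrays and 6.53 to 6.71 on the 4-cell control arrays, with 1 of the 8 markers, Cd44, well above background on all arrays of both groups and the other 7, among them Fshr, Inha and Star, on none. Its part in these values was not tested.

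The change of each effect between stages was tested directly. Between 1-cell and 2-cell embryos the T247 effect changed in 4 members, Kdm4b, Kdm4c, Kdm5a and Kdm5b, where 18.0% of probes were called, and the MGCD0103 effect changed in the same 4 genes, where 20.2% were called. All changes were downward. The T247 effect on Kdm5b changed by -2.07 ± 0.22 (limma adjusted p = 2.85e-08) and the MGCD0103 effect by -2.94 ± 0.22 (limma adjusted p = 2.77e-11). Between 2-cell and 4-cell embryos the T247 effect changed upward in Kdm4c, Kdm5a and Kdm5b and downward in Kdm6a, where 23.8% of probes were called. Kdm5b changed by 2.48 ± 0.22 (limma adjusted p = 1.74e-09). The Kdm6a change was -1.11 ± 0.38 (limma adjusted p = 0.0224) and was -1.76 without array 1 of the 2-cell controls. Without this array the change from the 1-cell to the 2-cell stage was also called for Kdm6a, upward, at 1.21 with T247 and 1.53 with MGCD0103. The T247 change from the 1-cell to the 2-cell stage was called in Kdm4c and Kdm5b alone when array 1 of the 1-cell controls or array 2 or 3 of the 2-cell controls was left out.

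Both inhibitors were given at the same dose and time, and their readouts were compared at 2 stages for each of the 8 members. The p-values were adjusted over all probes of a stage. T247 arrays of these stages lay on slide 4 and MGCD0103 arrays on slide 6. A difference between the inhibitors can therefore not be told apart from one between slides. How far each compound inhibited its targets was not measured. At the 1-cell stage 0 members differed between MGCD0103 and T247, where 0.256% of probes were called by limma, and 0 members had an unadjusted p below 0.05. The intervals of the difference, MGCD0103 minus T247, were -0.37 to 0.39 for Kdm4a, -0.33 to 0.31 for Kdm5b, -0.24 to 0.84 for Kdm6a and -0.04 to 0.53 for Kdm6b. These intervals leave room for differences, and the test does not show that the compounds act alike. At the 2-cell stage 2 members were called, both lower with MGCD0103, where 6.20% of probes were called. Kdm4c differed by -1.82 ± 0.24 (95% interval -2.31 to -1.33, limma adjusted p = 6.01e-06), a value that includes 2 MGCD0103 arrays on which it was not well above background. Kdm5a differed by -1.12 ± 0.32 (95% interval -1.77 to -0.47, limma adjusted p = 0.0115). Kdm5b differed by -0.87 ± 0.15 (95% interval -1.19 to -0.56, limma adjusted p = 1.9e-04), less than the limit, and by -1.01 and -1.22 after 75th percentile scaling and quantile normalization, where it was called. Kdm4a was higher with MGCD0103 by 0.57 ± 0.19 in its brighter probe (95% interval 0.19 to 0.95, limma adjusted p = 0.0253), while its dimmer probe was at -0.89 ± 0.48 (95% interval -1.87 to 0.10, limma adjusted p = 0.188). For Kdm4b the interval was -0.26 to 0.40, for Kdm6a 0.07 to 1.16 with an adjusted p of 0.0927 in limma, and for Kdm6b -0.16 to 0.40. With normexp the Kdm4c and Kdm5a differences were -0.57 and -0.86 and were not called. The Kdm5a call was also lost without array 1 of either group.

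Kdm5b and Kdm4a had more than 1 probe, and the first 30 of the 60 bases of each are shown because they tell which stretch of the gene each value comes from. Positions are those of the array files, in build mm9, and the sequences those of the probes.
Kdm5b, A_55_P2065449, chr1:136528046-136528105, plus strand: ctgtacacggtgctatttctattccttatg
Kdm5b, A_52_P601980, chr1:136528957-136529016, plus strand: gaccagagccagtcctttaagccatgttct
Kdm5b, A_55_P1960576, chr1:136527740-136527799, plus strand: tggcaaacggcctgcccgattttgaatggc
Kdm5b, A_55_P1960581, chr1:136503116-136503175, plus strand: ggaagtttagtagggatgtttgtgagtgct
Kdm4a, A_52_P281209, chr4:117809639-117809698, minus strand: cttcataccttgctctgtatacaggagtca
Kdm4a, A_55_P1982585, chr4:117814727-117814786, minus strand: ccctgcagtccactgaaatatgcttatatc
The first 3 Kdm5b probes lie close together, and the fourth lies nearer to the start of the gene. Whether a probe lies in coding or untranslated sequence is not given in the array files and no annotation of this build was used. The single probes of the other members lie at chr17:56542216-56542275 (Kdm4b), chr4:74051459-74051518 (Kdm4c), chr9:14267029-14267088 (Kdm4d), chrX:17852163-17852222 (Kdm6a) and chr11:69212177-69212236 (Kdm6b), and the Kdm5a probe spans chr6:120380280-120381871, which is 1592 bases for a probe of 60.

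The 4 Kdm5b probes moved together around the 2-cell stage. All rose from the 1-cell to the 2-cell stage, with LFCs of 4.15, 1.69 and 2.94 for the first 3, while the fourth, not well above background on any earlier array, rose at least 13.3-fold. All were lower with T247 at the 2-cell stage, from -2.31 to -1.56, and with MGCD0103, from -2.93 to -2.05, and every one was called. At the 4-cell stage they parted. The brightest probe was at 0.57 with T247 and the other 3 at -0.37, -0.29 and -0.19, with adjusted p-values in limma of 0.155, 0.264 and 0.714. The rise from the 2-cell to the 4-cell stage was also unequal, 0.76 for the brightest probe and 1.69 for the second, against -0.27 and -0.41 for the others.

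The 2 Kdm4a probes moved in opposite directions at the 2-cell stage. The brighter probe was well above background on all 39 arrays and fell between 1-cell and 2-cell controls. The dimmer probe measured 5.08, 5.43 and 5.43 in GV oocytes, was not well above background in MII oocytes or 1-cell controls, and measured 6.45, 7.37 and 7.33 in 2-cell controls. Its rise at the 2-cell stage was at least 6.57-fold, and its fall from GV to MII at least 2.20-fold. With T247 it measured 5.20, 4.95 and 4.65 and with MGCD0103 3.18, 4.70 and 4.26, below all control arrays. The LFC was -2.12 ± 0.48 and -3.01 ± 0.48 (limma adjusted p = 5.94e-04 and 7.2e-06), and without control array 1 it was -2.42 and -3.31. If the 2 probes were averaged, the 1-cell to 2-cell LFC of Kdm4a turned from -1.40 to 1.21, so the direction of this gene depends on the probe.

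**Figure D5:**
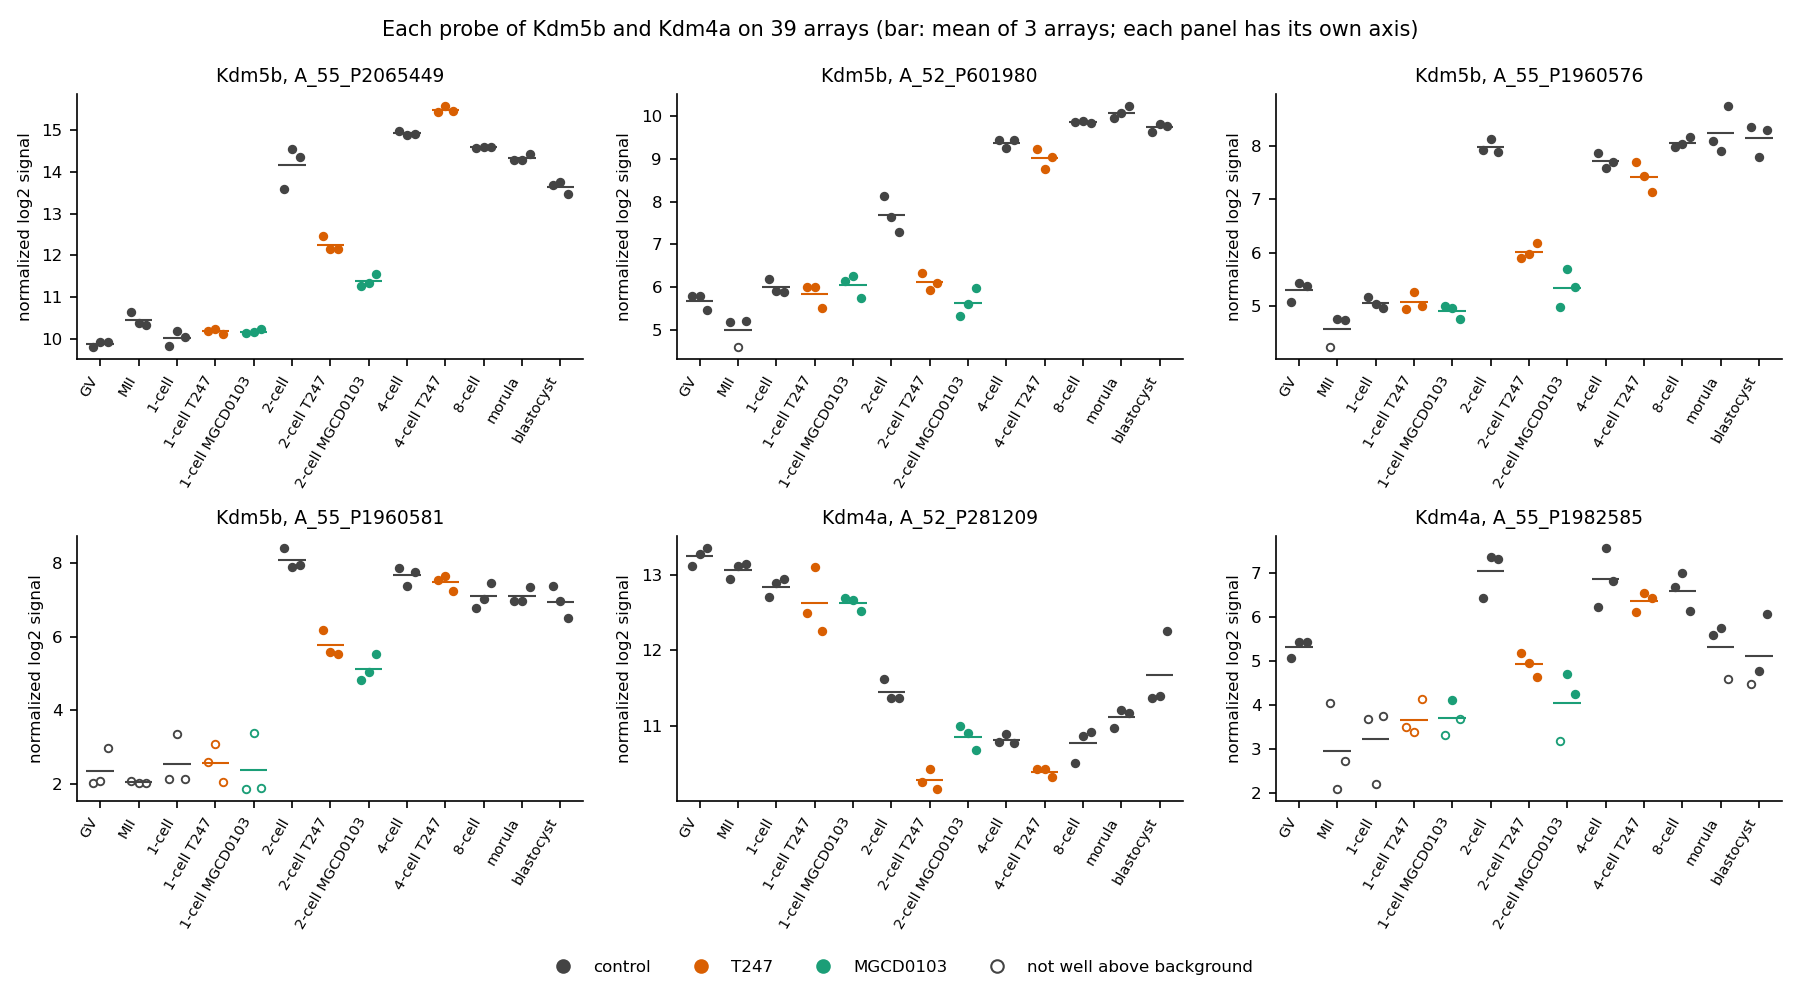
Log2 level of each probe of Kdm5b and Kdm4a on every array (y axis) over the 13 conditions (x axis), with open points where the probe was not well above background. The 4 Kdm5b probes rise together at the 2-cell stage, whereas the brighter Kdm4a probe falls from 12.85 to 11.45 and the dimmer one rises to between 6.45 and 7.37.

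The courses of the members over the 13 condition means were compared with each other and with all other named genes, as a description over means that share the same arrays and normalization. Kdm4c, Kdm5a and Kdm5b had correlations of 0.989 with each other in the pairs with Kdm4c, and Kdm4c and Kdm6a had -0.987. The genes most like Kdm4c were Irgq (r = 0.999), Rprd1b (0.995) and Rab42-ps (0.991). Rprd1b was also among the 3 genes most like Kdm5a (0.990) and Kdm5b (0.987), beside Tubgcp6 (0.989) for Kdm5a and Ifi35 (0.991) for Kdm5b, and Kdm4c itself was among the 3 for both. The most alike to Kdm6a were Plxna4 (0.995), Ftsjd1 (0.993) and Ccl4 (0.991), and to Kdm6b Lman1 (0.986), Reep4 (0.982) and Usp45 (0.981). For Kdm4a they were Btbd9 (0.986), Cog3 (0.981) and Tusc1 (0.977) and for Kdm4b Clptm1 (0.965), Sugp1 (0.957) and Napa (0.951). Kdm4d had lower values, 0.909 with Lrrc56, 0.901 with Nlrp6 and 0.893 with Zfp689.

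Other enzymes of histone methylation were counted from lists drawn up by their known role, and the called genes with the largest rise and the largest fall are named. Among 17 other histone lysine demethylases tested, 6 were lower and 0 higher with T247 at the 2-cell stage, with a median LFC of -0.56 against -0.21 for all probes, and 5 were lower and 2 higher with MGCD0103, with a median of -0.33 against 0.07. Of all probes, 25.3 and 28.1% were called in these comparisons. The largest fall in both was that of Uty, the Y-linked relative of Kdm6a, which was above background on 2 of 3 control arrays and on 0 treated arrays, at least 3.03-fold lower with T247 and at least 2.70-fold lower with MGCD0103. Kdm2b, a H3K36 demethylase, rose by 1.34 ± 0.27 with MGCD0103. At the 1-cell stage Kdm2a, its close relative, was the only gene of the list called, lower by -1.23 ± 0.15 with T247, where 8.05% of all probes were called. At the 4-cell stage 3 of 17 were lower with T247, where 18.2% of all probes were called. Of these 3, Phf8 had the largest fall at -1.25 ± 0.23.

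Methyltransferases of the same lysines were counted in the same way. Of 18 H3K4 methyltransferases and core subunits, 1 rose and 2 fell in 2-cell embryos with T247 and 1 rose and 1 fell with MGCD0103, where 25.3 and 28.1% of all probes were called. The median LFC of the list was -0.48 and 0.10 against -0.21 and 0.07 for all probes. Men1, a subunit of H3K4 methyltransferase complexes, rose by 1.17 ± 0.13 and 1.47 ± 0.13, and Ash2l, another core subunit, was at -1.12 ± 0.17 and -1.09 ± 0.17. Of 11 members of the H3K27 methyltransferase complex PRC2, 1 fell with T247 and 2 with MGCD0103 at the 2-cell stage, against the same shares of all probes, and the median was -0.63 and 0.16. Rbbp4, its histone-binding subunit, was at -1.63 ± 0.18 and -1.45 ± 0.18. Both lists had 0 genes called by limma at the 1-cell and 4-cell stages. Of all probes, 8.05, 4.99 and 18.2% were called in 1-cell embryos with T247, 1-cell embryos with MGCD0103 and 4-cell embryos with T247. At an unadjusted p below 0.05 the first list had 6, 3 and 10 genes in these comparisons, and the second had 3, 1 and 6. The shares of all probes are those of called probes and do not apply to this looser limit.

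Among 8 H3K9 methyltransferases, 3 rose at the 1-cell stage with T247 and 3 with MGCD0103, and 0 fell, with medians of 0.54 and 0.58 against 0.02 and 0.10 for all probes, of which 8.05 and 4.99% were called. Ehmt1, which mono- and dimethylates H3K9, had the largest rise, by 2.04 ± 0.18 with T247 (limma adjusted p = 2.68e-09) and 1.99 ± 0.18 with MGCD0103 (limma adjusted p = 7.31e-09). At the 2-cell stage Ehmt1 was higher by 1.56 and 2.04, and Prdm2, another H3K9 methyltransferase, was at -1.41 and -1.62. At the 4-cell stage 1 rose with T247, Suv39h1, by 1.20 ± 0.33, where 18.2% of all probes were called. Of 7 H3K36 methyltransferases, 2 fell in 2-cell embryos with T247 and 1 rose and 1 fell with MGCD0103, where 25.3 and 28.1% of all probes were called, and the median was -0.45 and 0.37. Nsd2 was at -1.36 and -1.07 and Nsd1 at 1.26 with MGCD0103. At the 4-cell stage 1 fell, Setmar, at -2.02 ± 0.38, against the same share of 18.2%.

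Genes linked to the function of the members were counted last. Of 5 partners of Kdm6a in the complexes of Kmt2c and Kmt2d, Paxip1 rose with T247 at the 1-cell stage, at least 1.11-fold, and Pagr1a was at -1.22 ± 0.13 with MGCD0103 at the 2-cell stage. Of all probes, 8.05% were called in the first of these comparisons and 28.1% in the second. No other partner was called in the HDACi comparisons. Of 10 genes that supply or use 2-oxoglutarate, the co-substrate of these demethylases, 5 fell and 1 rose with T247 at the 2-cell stage, with a median LFC of -0.78 against -0.21 for all probes, and 2 fell with MGCD0103, where 25.3 and 28.1% of all probes were called. The largest changes were those of Idh3b, a subunit of mitochondrial isocitrate dehydrogenase, at -1.64 ± 0.11 and -1.51 ± 0.11, and Idh2 at 1.49 ± 0.40 with T247. At the 4-cell stage 2 fell with T247, where 18.2% of all probes were called. Of these 2, Dlst, a subunit of the 2-oxoglutarate dehydrogenase complex, had the largest fall at -1.35 ± 0.18.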

How the data were processed

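RNA from pools of 100 oocytes or embryos was measured on 39 Agilent 1-colour arrays, 3 per condition. The authors labelled cRNA with Cy3, scanned the arrays and extracted spots with Agilent Feature Extraction, version 9.5.1.1 per the submitters' processing notes and 10.7.1.1 per the file headers. The deposited intensity values were background-subtracted by this software and not normalized between arrays. The authors also deposited log2 values of 19143 probes in a table of the series, on the log2 scale without centring of genes, with column medians of 8.71 to 10.5 and a correlation of at least 0.998 with the log2 intensity of the same array. It was used only as an alternative. There were 0 unused columns of samples.

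Here, log2 intensity was averaged over spots of a probe and normalized by smooth quantile normalization over all 39 arrays, which keeps differences between conditions that are shared by their arrays. A probe was tested when well above background, by the flag in the files, on at least 3 arrays (38252 of 55681 probes), so that members silent at some stages were kept. All 12 member probes passed. This filter takes no account of condition, but a probe above background in 1 condition only had to differ from the others. Differences came from 1 limma model (version 3.58.1, R 4.3.3) of the 13 conditions without covariates, with adjustment by Benjamini-Hochberg within each comparison, and tested on simulated data. The number of arrays limits the precision. Replicate numbers were not used as pairs. The control arrays of a number shared a slide, and the HDACi arrays did not lie on those slides.

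A lower bound of the fold was given where a probe was not well above background on all arrays of 1 group, computed per array from the dimmest signal well above background or the probe's own signal if higher. Genes named are the 8 members, the 3 genes whose course over the 13 conditions correlated most with each, and the called gene of each list with the largest rise and fall in each HDACi comparison. The members and the lists were chosen with earlier results of these data known. Sequences were taken from the array files (mm9) and RefSeq (GRCm38.p6). Alternatives covered the scaling, the background correction, the filter, the arrays and probes used, slides, array weights and each array left out.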

Additional observations from a re-analysis of the deposited data

Results flagged for a closer look

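The results listed here are effects of an inhibitor that differed between stages by a test of the difference itself in limma. Between 1-cell and 2-cell embryos the T247 effect changed by -1.001 ± 0.23 for Kdm4b (limma adjusted p = 0.00124), -2.40 ± 0.34 for Kdm4c (2.82e-06), -1.43 ± 0.45 for Kdm5a (0.018) and -2.07 ± 0.22 for Kdm5b (2.85e-08). Over the same stages the MGCD0103 effect changed by -1.16 ± 0.23 for Kdm4b (limma adjusted p = 2.15e-04), -4.19 ± 0.34 for Kdm4c (1.21e-10), -2.79 ± 0.45 for Kdm5a (1.57e-05) and -2.94 ± 0.22 for Kdm5b (2.77e-11). Kdm4c was not well above background on any 1-cell array, so its change is the 2-cell difference set against dim signals. Between 2-cell and 4-cell embryos the T247 effect changed by 2.88 ± 0.34 for Kdm4c (limma adjusted p = 1.92e-07), 2.03 ± 0.45 for Kdm5a (7.97e-04), 2.48 ± 0.22 for Kdm5b (1.74e-09) and -1.11 ± 0.38 for Kdm6a (0.0224). The 4-cell embryos had no MGCD0103 arrays.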

How the results depend on the processing

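Counts of members called moved by more than 1.5 times under some alternatives. Scaling to the 75th percentile gave 3 with T247 at the 2-cell stage, 6 from GV to MII oocytes, 2 from MII oocytes to the 1-cell stage, 2 from the morula to the blastocyst and 2 for the change of the T247 effect between 1-cell and 2-cell embryos. In the same order, 5269, 13001, 3488, 4032 and 2554 of all 38252 probes were called higher. Those called lower were 3847, 6821, 3098, 5261 and 2725. Quantile normalization gave 5 from GV to MII oocytes and 0 from the 4-cell to the 8-cell stage. Of all 38252 probes it called 8163 higher and 7091 lower in the first step and 2239 and 2642 in the second. Normexp background correction gave 3 with MGCD0103 at the 2-cell stage, and 0 with T247 at the 4-cell stage, between the inhibitors at the 2-cell stage and from 4-cell to 8-cell embryos. In this order, 1584, 1463, 239 and 854 of all 38252 probes were called higher with normexp, and 3334, 602, 211 and 551 lower. The filter and fill-in of the study and the authors' table, which both hold 6 members, each gave 0 with T247 at the 4-cell stage, 1 between the inhibitors at the 2-cell stage, 1 from GV to MII oocytes and 2 from the 2-cell to the 4-cell stage, with fewer members tested. With the filter and fill-in, 3522, 899, 255 and 7095 of 29674 probes were called higher in this order. Those called lower were 1713, 644, 12423 and 9060. With no limit on the LFC there were 1 with each inhibitor at the 1-cell stage, 4 with T247 at the 4-cell stage, 4 between the inhibitors at the 2-cell stage, 4 from GV to MII oocytes, 3 from MII oocytes to the 1-cell stage, 7 from the 2-cell to the 4-cell stage and 2 from the morula to the blastocyst. Counts over all probes are not given here for the authors' table or without the LFC limit. The cause was not tested for the scalings and normexp. With the slide as a random block (correlation 0.0742) every HDACi count stayed as reported. Treated and control arrays shared no slide, so this fit cannot tell an effect of the slide from one of the treatment. The fit without array 2 of the morulae was chosen after seeing the data.

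With 1 array left out at a time, the counts ranged from 5 to 6 with T247 and from 3 to 5 with MGCD0103 at the 2-cell stage, from 0 to 1 with T247 at the 4-cell stage, and from 1 to 2 between the inhibitors at the 2-cell stage. They stayed at 0 to 0 in all 3 comparisons of 1-cell embryos. In stage order the steps gave 2 to 2, 1 to 1, 6 to 7, 3 to 5, 0 to 1, 2 to 3 and 0 to 1. The changes of effect gave 2 to 5 and 4 to 5 from the 1-cell to the 2-cell stage with T247 and MGCD0103, and 3 to 4 for T247 from the 2-cell to the 4-cell stage.

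Some small LFCs, called under neither setting, turned in sign. With MGCD0103 at the 1-cell stage these were, after 75th percentile scaling, Kdm4b (-0.12), Kdm5b (-0.029) and Kdm6a (-0.044), after quantile normalization Kdm4b (-0.13) and Kdm5a (-0.030), with normexp Kdm4c (0.035), with probes averaged Kdm4a (0.13) and Kdm5b (-0.027), with array weights Kdm4d (0.18) and Kdm5a (-0.094), and without 1-cell control array 1 Kdm4d (0.36) and Kdm5a (-0.067), which with 1 array left out at a time ranged from -0.31 to 0.36 and from -0.067 to 0.54. With T247 they were Kdm4a with probes averaged (0.11) and Kdm5a without 1-cell control array 3 (0.29) or 1-cell T247 array 3 (0.062), with a range of -0.32 to 0.29 over all arrays left out, in 1-cell embryos, and Kdm5b with probes averaged (-0.070) in 4-cell embryos.

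With the replicate number as a block no count changed, with 5 members called for each inhibitor at the 2-cell stage, 1 with T247 at the 4-cell stage, 7 from the 1-cell to the 2-cell stage and 4 from the 2-cell to the 4-cell stage. Same-numbered control arrays, which shared a slide, deviated together weakly but in every pair (mean correlation 0.081, lowest 0.013, 25 of 84 pairs over 0.1). Control arrays of other numbers had a mean of -0.040, with 0 of 168 pairs over 0.1. Treated arrays had a mean correlation of -0.0016 with control or other treated arrays of their number, with 2 of 150 pairs over 0.1. Both were pairs of MGCD0103 and control 2-cell arrays, number 1 at 0.117 and number 3 at 0.114, while number 2 was at 0.0013. For T247 and control 2-cell arrays the values were -0.106, -0.062 and -0.041. The numbers were therefore not treated as pairing treated with control samples, and the slide shared by control arrays was not in the main model.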
